A study of Mus musculus with 63 samples.

Results

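Of 63 expression arrays of Eµ-myc lymphomas, 19 formed the comparison described here: the arrays made from 100 ng of RNA whose lymphoma number, given in the title, starts with 9. Of these, 14 carried the treatment label CTX 4h and 5 the label native. CTX is cyclophosphamide, a DNA-alkylating drug. The labels' protocols describe 1 intraperitoneal dose of 300 mg/kg, given to mice that had received primary lymphomas by transplantation, and the label places sampling at 4 h. All 19 samples were labelled as Emu-myc transgenic cells on the C57BL/6 background, taken from lymph nodes as primary lymphoma. An Eµ-myc mouse carries a Myc transgene under the immunoglobulin heavy-chain enhancer, which drives it in B-lineage cells, and its tumours are B-cell lymphomas. No age is given for either group. Cells were not purified before RNA extraction, so normal cells of the node could contribute RNA. The series' own text covers untreated samples only, and the assignment of arrays to treatment rests on the per-array label. Whether the native tumours grew in transgenic animals or in recipients cannot be read from the labels, and a difference of host cannot be told apart from the drug. No label names a mouse, and p-values thus reflect the spread between samples, which may be technical.

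Cyclophosphamide is activated in the liver to a mustard that crosslinks DNA, and crosslinks activate the ATM and ATR kinases and the transcription factor p53. Genes switched on by p53 include its own inhibitor, brakes on the cell cycle and growth, and death genes of the BCL2 family. Stress kinases also switch on immediate early genes within minutes to hours, and alkylating metabolites consume glutathione, which is linked to the NRF2 antioxidant genes. In Eµ-myc lymphomas the p53 pathway is under selection, often by loss of p53 or of Cdkn2a, whose product ARF holds the p53 inhibitor in check. Trp53 and Cdkn1a were not analysed here.

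Of the promoters of genes described below, 1 of each stress family is shown because it carries a match to the motif searched for that family. For the p53 lists that motif was a half-site, which is only a part of a full p53 site. Full p53 sites were not searched for. The sequences are from RefSeq, build GRCm38.p6, 5′ to 3′ on the gene's own strand, and capitals mark matches to the motif. The window searched on both strands ran from 250 bases before to 50 bases after the annotated start.
Dusp5, plus strand, chr19:53529045-53529104, capitals for 2 adjoining CArG boxes, the site of serum response factor: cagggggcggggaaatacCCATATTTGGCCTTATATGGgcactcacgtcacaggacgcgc
Mdm2, minus strand, chr10:117710909-117710968, capitals for 1 p53 half-site: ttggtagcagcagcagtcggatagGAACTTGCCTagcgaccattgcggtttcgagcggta
A CArG box lay in the window of 3 of the 21 immediate early genes that had a promoter entry (Dusp5, Egr2 and Zfp36), and in 1.81% of all 27025 genes with an entry. A p53 half-site lay in 8 of 25 genes of the 3 p53 lists and in 9.55% of all. These are matches of letters and not measurements of binding.

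The array values are log2 expression values, on which a difference of 1 is a 2-fold ratio. The native array of lymphoma 9820 stood apart from the other 18. Its mean correlation with them was 0.908, against 0.948 to 0.974 for the others, and it made up 51.0% of a first principal component that held 38.1% of the variance. The median over genes was 7.30 on that array and 6.98 to 7.17 on the rest. Its value of Myc, the transgene's own gene, was 11.39, where the 4 other native arrays gave 13.11, 13.51, 13.54 and 13.35 and the treated arrays ran from 12.78 through a median of 13.25 to 13.69. Its pan-B-cell marker level was the lowest of the native arrays at 10.38 (the others lay between 10.86 and 11.66), while its precursor B-cell marker level was the highest, at 8.04 against 5.86 to 7.59. Its mature B-cell marker level was also the highest of the native arrays, at 10.3 against 9.10 to 9.67. The list medians below are therefore given with and without it, and so are those gene values of the 19-array comparison that it moved by over 1.5 times.

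The main comparison asked which genes differed between lymphomas 4 h after cyclophosphamide and native ones. The model was limma over 19938 genes, and a gene was called where its Benjamini-Hochberg adjusted p was under 0.05. No gene was called in either direction (0% of 19938), and the smallest adjusted p was 0.968. The same count of 0 was found under each of the 34 alternatives tried, where the smallest adjusted p was 0.256. Among them, a 1.5-fold filter on the main fit could only leave the count at 0. Leaving out the array titled rep2 repeated the fit without the treated array of lymphoma 9190. At an unadjusted p under 0.05, 344 genes were higher (1.73%) and 258 lower (1.29%) after the drug, 602 in all or 3.02%, against the 5% that this threshold lets through when nothing differs. With the arrays centred on a common median they were 282 and 403, and after quantile normalization 582 and 625. Without lymphoma 9820 the counts were 302 higher (1.51%) and 189 lower (0.948%). Unadjusted counts are therefore used below only to describe where members of a list lie. The groups overlapped for nearly every gene: none lay higher on all 14 treated arrays than on all native ones (0%), and only the dim olfactory receptor gene Olfr466, singled out after its values were seen, lay lower on all of them (0.00502%).

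Among 17 measured genes of p53 feedback and arrest, 15 had a positive log2 fold change and 5 reached an unadjusted p under 0.05, all higher. The median of the list was 0.33 and that of all genes 0.01. Without lymphoma 9820 the list median was 0.36 and 6 genes reached that p. With each of the native arrays left out in turn the median ran from 0.29 to 0.48 and the count from 2 to 7. The count of 2 belongs to leaving out lymphoma 9188, and that of 7 to leaving out lymphoma 9184. Over all genes 222 and 720 were higher at that p in those fits, against 344 in the main one.

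Sesn2 encodes sestrin 2, which restrains mTORC1 signalling under stress. Its native values were 7.18, 6.73, 7.08, 6.65 and 7.01, in the order of lymphomas 9174, 9180, 9184, 9188 and 9820 that is kept throughout. On treated arrays Sesn2 ran from 6.93 through a median of 7.55 to 9.04. The native arrays lay close together and 10 of 14 treated arrays lay above all of them. Means were 7.70 ± 0.71 (SD, n = 14) and 6.93 ± 0.23 (SD, n = 5), a log2 fold change of 0.77 ± 0.30 (SE, limma adjusted p = 0.968), and 0.79 without lymphoma 9820.

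Phlda3, whose product blocks AKT at the membrane, had native values of 7.73, 7.85, 7.10, 6.55 and 7.23 and treated values from 6.78 through 8.35 to 10.17. Its log2 fold change was 0.96 ± 0.40 (SE, limma adjusted p = 0.968), with 9 of 14 treated arrays above all native ones. Both Sesn2 and Phlda3 were highest on the treated array of lymphoma 9161. Plk3, a stress-activated polo-like kinase, had a log2 fold change of 0.59 and Trp53inp1, which assists p53 in apoptosis, 0.53; the second was 0.36 without lymphoma 9820.

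Mdm2 encodes the ubiquitin ligase that degrades p53. Native values were 9.26, 9.37, 9.27, 8.87 and 8.03, and treated values ran from 8.92 through 9.45 to 10.23. The lowest value of all 19 belonged to lymphoma 9820, and 8 of 14 treated arrays lay above every native one. The log2 fold change was 0.48 ± 0.21 (SE, limma adjusted p = 0.968) and 0.25 without that array.

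Of 9 measured p53 death effectors, 9 had a positive log2 fold change and 1 reached an unadjusted p under 0.05, with a list median of 0.29 (0.24 and no gene without lymphoma 9820). That gene was Pidd1, which builds the PIDDosome that activates caspase 2, at 0.72 (0.37 without 9820). The BH3-only death genes Pmaip1 (NOXA) and Bbc3 (PUMA) stood at 0.47 and 0.38, and the nuclease gene Aen at 0.29 (0.17 without 9820). Bbc3 lay above all native arrays on 9 of 14 treated ones and below all of them on 1. For 7 genes of p53-linked repair the median was 0.07 and none reached that p; without 9820 the median was 0.016 and 1 did. Gadd45a, a stress sensor gene, was at 0.29, the translesion polymerase gene Polk at 0.31, and the excision repair genes Ercc5 and Ddb2 at 0.16 and 0.07. Ddb2 was at -0.033 without lymphoma 9820.

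**Figure D1:**
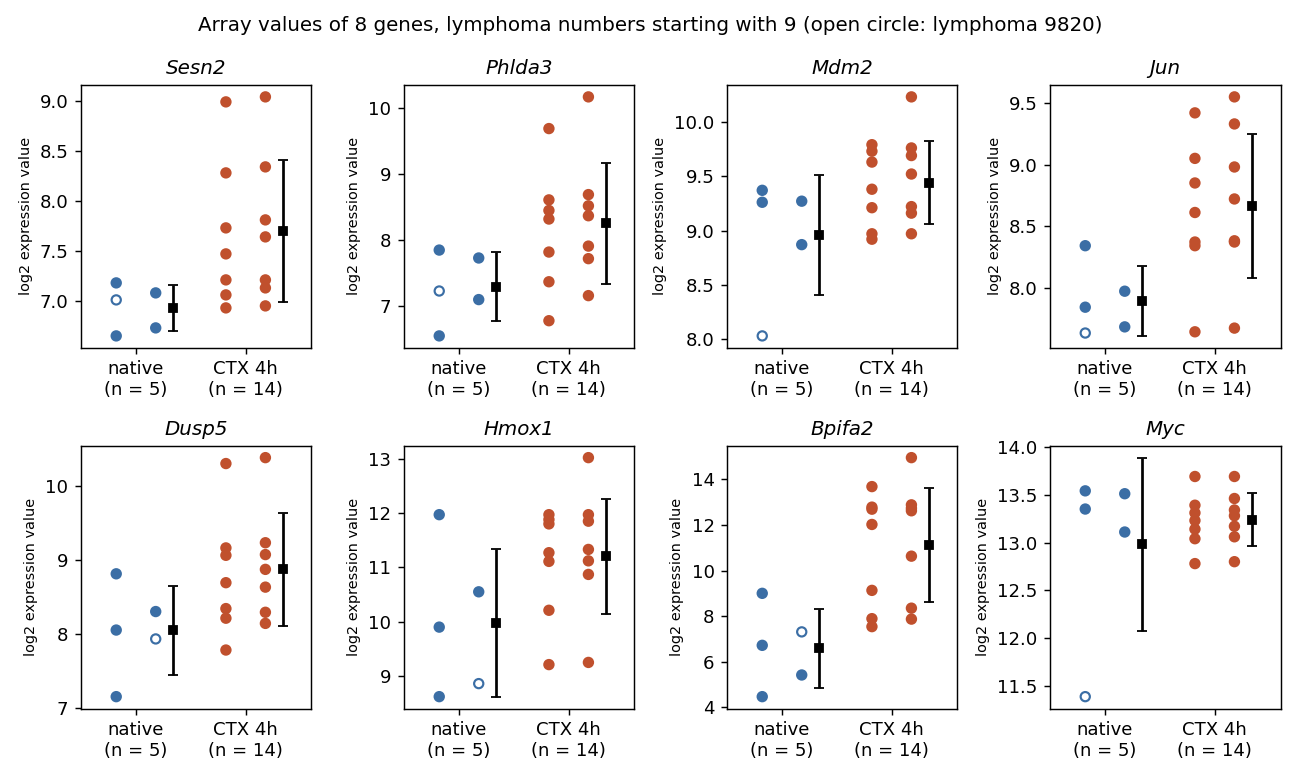
Log2 expression values of 8 genes on each array, for 5 native and 14 CTX 4h lymphomas; squares with bars are the mean and SD, and the open circle is the native array of lymphoma 9820. The native and treated points overlap in every panel. Sesn2, Phlda3, Mdm2, Jun and Bpifa2 have most treated points above all native ones. The open circle lies below every other point for Mdm2 and Myc, and narrowly so for Jun.

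Immediate early genes, which are transcribed without new protein synthesis, had a positive log2 fold change in 23 of 24 cases, with a median of 0.31. Of these, 6 reached an unadjusted p under 0.05, all higher, and without lymphoma 9820 there were 5 and the median was 0.30. Leaving out each native array in turn gave medians from 0.26 to 0.35 and counts from 2 (without lymphoma 9174) to 5. Over all genes 459 were higher at that p without lymphoma 9174. When the number-9 arrays made from 300 ng were added, giving 15 treated and 11 native arrays with RNA input as a term, 13 of the 24 reached that p and the median was 0.36. In that fit 489 of all genes were higher at that p and 358 lower, against 344 and 258 in the main fit. Of other lists, 9 of 17 p53 feedback genes, 6 of 13 chemokine and secreted genes and 35 of 66 small RNAs reached it. Counts fell for DNA replication (from 5 to 4), MYC targets (2 to 0), salivary gland (5 to 4) and skeletal muscle markers (1 to 0).

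Jun encodes a subunit of the AP-1 transcription factor. Its native values were 7.68, 8.34, 7.97, 7.84 and 7.63, and its treated values ran from 7.64 through 8.66 to 9.55. All but the treated arrays of lymphomas 9181 and 9182, at 7.64 and 7.67, were at or above the highest native value. Means were 8.66 ± 0.59 (SD, n = 14) and 7.89 ± 0.28 (SD, n = 5), a log2 fold change of 0.77 ± 0.26 (SE, limma adjusted p = 0.968) that was 0.71 without lymphoma 9820. Junb, a further AP-1 subunit gene, stood at 0.58.

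Dusp5, which encodes a nuclear phosphatase that switches off ERK and whose CArG boxes are printed above, had native values of 8.06, 8.31, 8.82, 7.16 and 7.94. Treated values ran from 7.79 through 8.79 to 10.39. Lymphomas 9197 and 9204, at 10.39 and 10.31, lay more than 1 unit above all other arrays, and 7 of 14 treated arrays lay above all native ones. The log2 fold change was 0.82 ± 0.34 (SE, limma adjusted p = 0.968). Klf4, a zinc-finger transcription factor gene, stood at 0.32.

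The antioxidant and metal genes showed wide native spreads. Of 14 NRF2 targets, 11 had a positive log2 fold change and 2 reached an unadjusted p under 0.05 (none without lymphoma 9820), with a median of 0.24 (0.20 without it). Hmox1, the gene of inducible heme oxygenase, had native values of 9.90, 11.97, 10.55, 8.62 and 8.86 and treated values from 9.21 through 11.30 to 13.02. The native array of lymphoma 9180 equalled or exceeded 13 of the 14 treated arrays, and the 2 lowest treated arrays were again lymphomas 9181 and 9182. The log2 fold change was 1.22 ± 0.53 (SE, limma adjusted p = 0.968), and 0.94 without 9820. Gclc, the catalytic subunit gene of glutathione synthesis, went from 0.63 to 0.26 when that array was left out. The metal-binding metallothionein genes Mt2 and Mt1 stood at 1.01 and 0.67 (0.70 and 0.38 without it), and the zinc exporter gene Slc30a1 at 0.33. In the list of metallothionein and zinc genes 5 of 8 were positive, none reached that p and the median was 0.03 (0.09 without 9820, -0.014 after quantile normalization).

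Of 13 chemokine and secreted genes 10 were positive, with a median of 0.21, and 1 reached an unadjusted p under 0.05. That was Timp1, an inhibitor of matrix proteases, at 0.92. The list median was 0.31 without lymphoma 9820 and 0.06 without lymphoma 9188, and no gene reached that p without lymphoma 9174, 9184 or 9188. The monocyte chemokine genes Ccl2 and Ccl7 were at 0.93 and 0.89, and their treated values spanned 7.63 to 11.10 and 7.24 to 10.79. Macrophages also make these chemokines. The macrophage marker level lay between 8.28 and 9.04 on native and between 7.91 and 9.79 on treated arrays, with 13 of 13 markers positive, a median of 0.19 and 1 at p under 0.05 (the monocyte marker Cd14, 0.58). That median was 0.15 without lymphoma 9820 and 0.07 without lymphoma 9188, and Cd14 did not reach that p without lymphoma 9174, 9184 or 9188. With the macrophage mean as a term, 8 of 13 chemokine and secreted genes were positive, with a median of 0.09 and none at that p. With the adipocyte mean as a term 6 were, with a median of -0.12. With the small RNA mean 8 were, with a median of 0.12. The salivary gland marker mean, a term added after its values were seen, gave 11 positive, a median of 0.45 and 4 at that p. With that term 583 of all genes were higher at that p, against 344 in the main fit. In the fit of all number-9 arrays with RNA input as a term, 12 were positive, the median was 0.76 and 6 reached that p.

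Genes of growth and division depended on lymphoma 9820. For 23 DNA replication genes, 22 were positive, 5 reached an unadjusted p under 0.05 and the median was 0.48, but without that array none did and the median was 0.08. Rrm2, a subunit gene of ribonucleotide reductase, had native values of 11.05, 10.97, 11.54, 10.42 and 8.85 and treated values from 10.79 through 11.42 to 12.47; its log2 fold change was 0.89 with 9820 and 0.46 without. For Ccne2 (cyclin E2) the values were 0.96 and 0.32, for the replication licensing gene Cdc6 0.48 and 0.28, and for Pcna, the sliding clamp gene, 0.53 and 0.13. Of 20 MYC targets and ribosome biogenesis genes, 20 were positive with a median of 0.33, and 8 with a median of -0.02 without 9820. Pa2g4, a growth regulator gene, went from 0.66 to 0.16 and Odc1, the polyamine synthesis gene, from 0.42 to 0.17. Myc itself stood at 0.26 and at -0.14.

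The direction of the mitotic genes depended on the arrays and terms used. Of 24 G2 and mitosis genes 11 were positive with a median of -0.12 over all 19 arrays, and none was positive without lymphoma 9820, with a median of -0.42. Without lymphoma 9174, 15 were positive with a median of 0.04, with the small RNA mean as a term 15 with a median of 0.10, and with the adipocyte mean as a term 24 with a median of 0.26. In the fit of all number-9 arrays with RNA input as a term, 3 were positive with a median of -0.34. With the salivary gland mean as a term 7 were, with a median of -0.31, and after quantile normalization 7, with a median of -0.18. No member reached an unadjusted p under 0.05 in these fits, with 2 exceptions. With the adipocyte term 2 did, both higher (818 of all genes were higher), and in the fit of all number-9 arrays 1 did, lower (358 of all genes were lower). Plk1, the kinase that drives mitotic entry, had native values of 11.37, 10.01, 11.24, 11.31 and 9.11 and treated values from 8.83 through 10.10 to 12.06. Its log2 fold change was -0.39 over all arrays and -0.77 without 9820. The anaphase activator gene Cdc20 stood at -0.36 and -0.66, the centromere gene Cenpf at -0.39 and -0.70, and the microtubule depolymerase gene Kif2c at -0.34 and -0.63. Of 25 checkpoint and crosslink repair genes 18 were positive with a median of 0.13, and 4 with a median of -0.13 without 9820. Among them Atm, the damage kinase gene, stood at 0.38 and 0.07, and Brca1, which acts in crosslink repair, at 0.35 and 0.09.

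**Figure D2:**
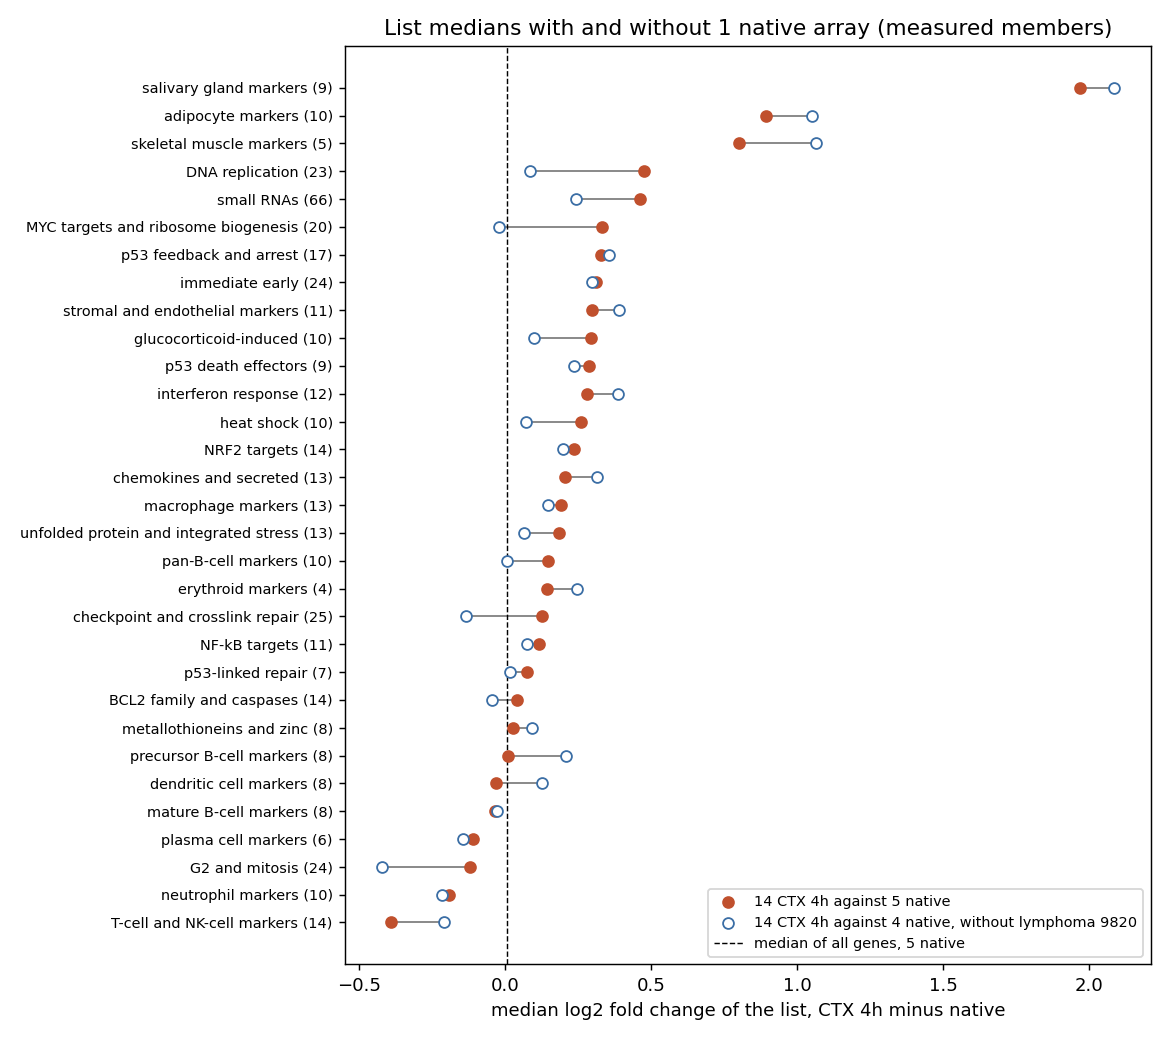
Median log2 fold change, CTX 4h minus native, of each of 31 gene lists, with 5 native arrays (filled) and with 4 (open, without lymphoma 9820); the number of measured members is in parentheses and the dashed line is the median of all genes, 0.01. The lists for DNA replication, MYC targets and mitosis shift to the left without that array, and the p53 feedback and immediate early lists stay near 0.3.

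Among 14 BCL2 family and caspase genes 10 were positive with a median of 0.04, and none reached an unadjusted p under 0.05. Without lymphoma 9820, 6 were positive with a median of -0.046, and after quantile normalization 2 with a median of -0.07. The BH3-only gene Bcl2l11 (BIM) was at 0.56 (0.16 without lymphoma 9820), Bmf at -0.29 (-0.44 without it) and the survival gene Bcl2 at -0.21. Of 10 glucocorticoid-induced genes 8 were positive, with a median of 0.30 (0.10 without 9820), and 1 reached that p: Ddit4, an mTORC1 inhibitor gene also known as REDD1, at 0.62, while the kinase gene Sgk1 was at 0.41. No member of that list reached that p without 9820. Heat shock genes had a median of 0.26 (0.07 without 9820; Hsp90aa1 0.51 and 0.07) and unfolded protein and integrated stress genes of 0.18 (0.07 without; Hspa5 0.28 and 0.13), with no member at that p in either list. All 12 interferon response genes were positive, with a median of 0.28 and none at that p (0.39 and 1 without 9820, and a median of 0.16 without lymphoma 9188); Ifit1 stood at 0.50 and Rsad2 at 0.41. NF-kB targets had a median of 0.12 (0.08 without 9820, -0.0015 without 9188), and the adhesion gene Icam1 stood at 0.57.

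The largest list median belonged to genes of the secretory salivary glands, which lie beside lymph nodes of the neck. Of 9 salivary gland markers 8 were positive, 5 reached an unadjusted p under 0.05 and the median was 1.97 (2.09 and 6 without lymphoma 9820). Bpifa2, a salivary secretory protein gene, had native values of 4.47, 5.42, 6.72, 9.0 and 7.31. Its treated values ran from 7.54 through 12.32 to 14.95, so 10 of 14 treated arrays lay above all native ones. The log2 fold change was 4.54 ± 1.09 (SE, limma adjusted p = 0.968). Amy1, the salivary amylase gene, stood at 3.78, Smr3a at 3.52 and Dcpp1 at 2.73. The mean marker level was 5.48 to 6.95 on native and 5.94 to 11.27 on treated arrays. Native values of Dcpp2 ran from 3.51 to 5.77, and whether such dim markers were detected was not tested. Which node was taken is not given in the labels, and fewer cells of a type and less RNA per cell cannot be told apart in these bulk samples.

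Markers of other tissues that surround lymph nodes had the same sign. Of 10 adipocyte markers 10 were positive with a median of 0.89 (1.05 without lymphoma 9820), and 1 reached an unadjusted p under 0.05, the lipase gene Lpl at 1.10. Without lymphoma 9180, 6 did, without 9820 2, and without 9174, 9184 or 9188 none. Car3 stood at 1.54 and Retn at 1.43, with native Car3 values from 7.06 to 12.83. Adipocyte marker levels were 6.76 to 9.52 on native and 7.53 to 10.66 on treated arrays. Of 5 skeletal muscle markers 5 were positive with a median of 0.80 and levels of 6.08 to 7.32 and 6.08 to 9.69; Acta1, skeletal actin, stood at 1.03 and reached that p, though not without lymphoma 9174, 9180, 9184 or 9820. The muscle median was 1.07 without 9820. Of 11 stromal and endothelial markers 11 were positive and 3 reached it, with a median of 0.30 and levels of 8.31 to 8.91 and 8.27 to 9.65; the matrix genes Sparc and Col1a1 both stood at 0.67. Without lymphoma 9820 the stromal median was 0.39 and 1 reached that p, and without lymphoma 9188 none did. T-cell and NK-cell markers had the opposite sign in 13 of 14 cases, with a median of -0.39 (-0.21 without lymphoma 9820), levels of 6.83 to 8.30 and 6.31 to 8.45, and none at that p; the cytotoxic granule gene Nkg7 stood at -0.81 and the co-stimulator gene Cd28 at -0.68.

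The stress lists were also fitted with the marker levels as terms, and the counts are of members at an unadjusted p under 0.05. With the salivary gland mean as a term, an alternative added after its values were seen, the medians were 0.44 for p53 feedback (6 of 17), 0.35 for the death effectors (3 of 9), 0.34 for immediate early genes (8 of 24) and 0.31 for NRF2 targets (2 of 14). With the macrophage mean they were, in that order, 0.29 (4), 0.25 (2), 0.22 (3) and 0.15 (1). With the adipocyte mean they were 0.40 (5), 0.32 (1), 0.21 (1) and 0.06 (1), with 7 of 14 NRF2 targets positive. With the mean of the small RNAs they were 0.24, 0.20, 0.20 and 0.17, and 1 immediate early gene and no member of the other lists reached that p. Counts over all genes moved as well, from 344 higher in the main fit. They were 583 with the salivary gland mean, 818 with the adipocyte mean and 116 with the small RNA mean.

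The labelled cell type was checked against its markers. Pan-B-cell markers had mean levels of 10.38 to 11.66 on native and 9.85 to 11.97 on treated arrays, with 7 of 10 positive, a median of 0.15 and none at an unadjusted p under 0.05. Without lymphoma 9820, 5 were positive with a median of 0.0061, and after quantile normalization 4 with a median of -0.06. Vpreb3, a pre-B-cell receptor partner gene, had its lowest values on the native array of lymphoma 9174 (8.37) and the treated array of lymphoma 9197 (8.80) and lay between 11.02 and 13.02 on the other treated arrays. Cd22 stood at -0.23 (-0.34 without lymphoma 9820) and Ighm, the heavy chain gene of IgM, at -0.29 (-0.09 without it), with treated values of Ighm from 6.51 to 10.02. Precursor B-cell markers had a median of 0.01, which was 0.21 without lymphoma 9820 and -0.29 without lymphoma 9174. Mature B-cell markers had one of -0.03 (also -0.03 without 9820, -0.21 without 9180 and 0.02 without 9188), dendritic cell markers of -0.03 (0.13 without 9820) and erythroid markers of 0.14 (0.25 without 9820), with no member at that p in these fits. Neutrophil markers, at 5.62 to 9.29 on native and 6.03 to 8.50 on treated arrays, had no positive member and a median of -0.19 (-0.22 without 9820), but all 10 were positive with a median of 0.17 without lymphoma 9188, and the median was -0.66 without lymphoma 9174. Plasma cell markers had a median of -0.11 (-0.14 without 9820). Tnfrsf17, the BCMA receptor gene, reached an unadjusted p under 0.05 at -0.45 (-0.295 without 9820).

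Small nucleolar and other small RNA genes were the list with the most members at an unadjusted p under 0.05: 20 of 66, all higher, with 58 positive and a median of 0.46. It was also the longest list, and salivary gland markers had a larger share, 5 of 9. Over all genes 1.73% were higher at that p. Without lymphoma 9820 there were 8 small RNAs with a median of 0.24, and without lymphoma 9180 there were 29. In those fits 302 and 605 of all genes were higher. Snord35b, a guide RNA of ribosomal RNA methylation, had native values of 11.11, 10.96, 10.98, 10.78 and 9.51 and treated values from 10.66 through 11.55 to 12.69, a log2 fold change of 0.99 (0.70 without 9820). Snora73a stood at 0.66. The part of RNA quality in these values was not tested.

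Outside the lists, the genes with the smallest p were mixed. Selenbp2, a selenium-binding protein gene, had native values of 6.48, 6.38, 6.72, 6.85 and 5.58 and treated values from 6.63 through 7.24 to 7.89. It lay above all native values on 13 of 14 treated arrays, with a log2 fold change of 0.87 ± 0.20 (SE, limma adjusted p = 0.968) and 0.67 without lymphoma 9820. Rnf125, a ubiquitin ligase gene, stood at 0.78 and lay above all native arrays on 12 of 14. The remaining ones included the sarcoplasmic channel gene Tmem38b at 0.98, the RNA-binding gene Arid5a at 0.57, the splicing factor gene Srsf5 at 0.51, the snoRNA host gene Gas5 at 0.68 and the nuclear receptor gene Esrra at 0.36.

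On the lower side were the non-coding RNA gene Firre, with native values of 8.58, 8.17, 7.70, 8.25 and 9.0 and treated values from 6.98 through 7.46 to 8.0, at -0.83 ± 0.20 (SE, limma adjusted p = 0.968). The arginine and lysine transporter gene Slc7a3 stood at -0.97, where the native array of lymphoma 9174 (8.26) lay above the other native arrays (6.09 to 6.89). The scaffold gene Magi3 stood at -0.54, the sphingosine-phosphate receptor gene S1pr2 at -0.45 and the BBSome gene Ttc8 at -0.37.

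Among the lowest p on that side were also microRNA genes. The 5p arms that RefSeq lists for them do not share a seed (bases 2 to 8, in capitals).
mmu-miR-186-5p: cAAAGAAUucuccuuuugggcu
mmu-miR-491-5p: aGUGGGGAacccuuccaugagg
Mir186 had native values of 5.30, 5.78, 5.30, 5.55 and 5.58 and treated values from 4.49 through 4.94 to 5.32, at -0.55 (limma adjusted p = 0.968), and Mir491 stood at -0.40. Both lay below the array medians, where differences are compressed, and whether their probe sets measure a precursor or the mature form was not analysed here.

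The treated arrays differed widely among themselves. A list's deviation is the mean of its members after each gene is centred on its mean over the 19 arrays. For p53 feedback and arrest it was highest on the treated arrays of lymphomas 9161 (0.61), 9177 (0.51), 9186 (0.42) and 9197 (0.39). It was lowest on those of 9181 (-0.41) and 9182 (-0.40), within the native range of -0.63 to -0.06. The pair of 9181 and 9182 was lowest among treated arrays for the death effector (-0.36 and -0.27), immediate early (both -0.42) and NRF2 (-0.49 and -0.50) lists. Low values were not confined to stress lists. The pair was also lowest for NF-kB targets (-0.81 and -0.71) and mature B-cell markers (-0.84 and -0.53), and macrophage markers were at -0.83 and -0.59. Its G2 and mitosis deviations were 0.67 and 0.68, and its precursor B-cell marker deviations 0.40 and 0.44. Lymphomas 9161 and 9177 had mitotic deviations of -0.93 and -0.77. Lymphoma 9186, however, combined a p53 deviation of 0.42 with a mitotic one of 0.94.

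Cdkn2a spanned 6.91 to 10.75 on treated arrays and was 7.96, 9.80, 9.99, 10.41 and 7.74 on native ones. It was 9.77 and 10.09 on the treated arrays of 9181 and 9182, and 7.49, 7.09, 6.91 and 7.87 on those of 9161, 9177, 9186 and 9197. Its log2 fold change was -0.58 ± 0.59 (SE, limma adjusted p = 0.968), and -0.94 without lymphoma 9820. Treated arrays were not split by these values for any test.

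**Figure D3:**
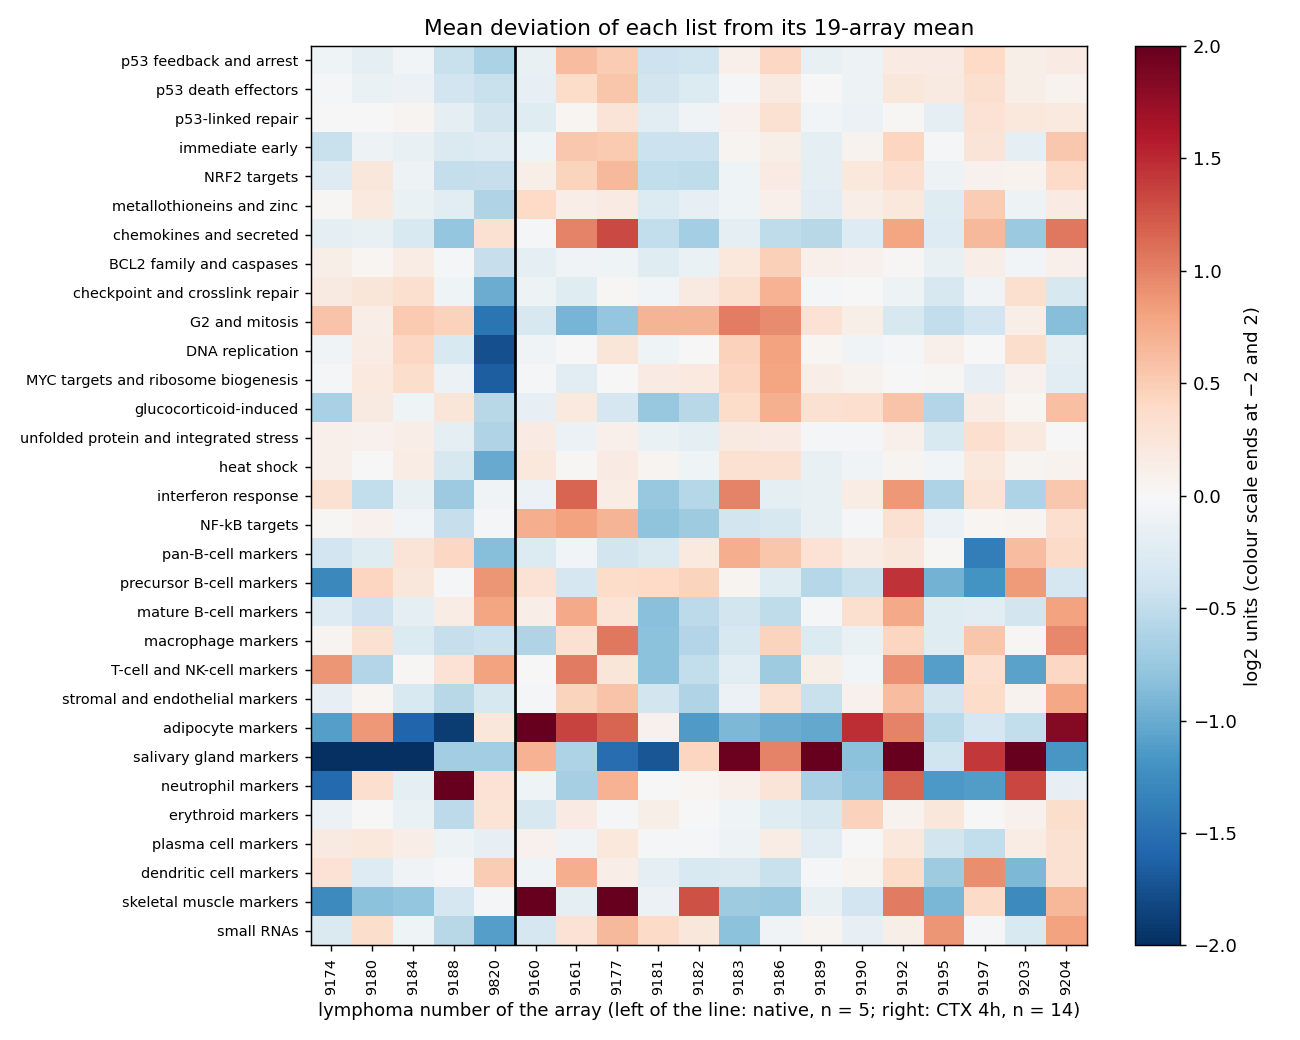
Mean deviation of each of 31 lists (rows) from its 19-array mean, in log2 units with the colour scale ending at −2 and 2, for each array by lymphoma number, native to the left of the line and CTX 4h to the right. The native column of 9820 is dark blue in the rows for mitosis, replication and MYC targets. The columns of 9181 and 9182 are blue in the stress rows and also in those for NF-kB targets, mature B-cell and macrophage markers. The salivary gland row is blue on all native arrays and ranges widely on treated ones.

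Each array's closest partner among the 44 arrays with 100 ng input was found by correlating deviations over 10372 genes, as a description. Of the 14 treated arrays, 13 were closest to another treated array, and correlations ran from 0.31 to 0.78. The remaining one (lymphoma 9197) was closest to a native one of the same number series, lymphoma 9174. The native arrays of lymphomas 9174, 9180, 9184, 9188 and 9820 were each closest to a treated array as well, at 0.43 to 0.56. Treated arrays outnumber native ones among the 44, so these counts do not show grouping by treatment. For the treated arrays of 9161, 9177, 9192 and 9204 the closest was lymphoma 8775, a treated array whose number starts with 8. The treated arrays of 9181 and 9182 were closest to each other (0.66). Of the 6 treated arrays whose numbers start with 1, all 6 were closest to a native array of those numbers, with correlations from 0.78 to 0.89. Among the 9 treated arrays whose numbers start with 8, 2 were closest to a native array of those numbers (0.65 and 0.73). Whether such arrays hold the same primary lymphoma is not stated in the labels. No pairing of arrays was used in any fit, and the fit of 44 arrays below treats them as independent.

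The effect was then set against that in the other 100 ng arrays, 9 treated and 3 native with numbers starting with 8, and 6 treated and 7 native with numbers starting with 1, which share no array with the 19. The test of the difference, a contrast in a limma fit of 6 groups over 44 arrays, called 1 gene (0.00502% of 19938). At an unadjusted p under 0.05 the difference held 1059 genes (5.31%), and without lymphoma 9820 596 (2.99%). The called gene was Zswim3, a zinc-finger gene. Its native values were 6.86, 6.48, 6.54, 6.06 and 6.56 and its treated values ran from 6.54 through 6.91 to 7.11. Its log2 fold change was 0.40 here, -0.45 for numbers starting with 8 and -0.15 for numbers starting with 1, a difference of 0.71 ± 0.13 (SE, limma adjusted p = 0.039). That adjusted p ranged from 0.00465 to 0.997 over the alternatives, and no gene was called without the native array of lymphoma 9180, 9184, 9188 or 9820 (Zswim3 0.141, 0.0966, 0.46 and 0.0628). The next smallest p belonged to genes that were not called: Mus81, a crosslink repair nuclease gene, at 0.22 here against -0.77 and -0.24, Pcyox1l at 0.31 against -0.85 and -0.30, Mtmr4 at 0.38 against -0.42 and -0.36, Chordc1 at 0.31 against -0.81 and -0.55, Mlx at 0.28 against -0.60 and -0.36, and Svbp at -0.36 against 0.31 and 0.22. Without lymphoma 9820 Chordc1 stood at 0.028 and Mlx at 0.14 here.

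For the stress lists the values stood side by side as follows. The p53 feedback median was 0.33 here, 0.23 for numbers starting with 8 and 0.12 for numbers starting with 1. The immediate early medians were 0.31, 0.29 and 0.28, with 23, 22 and 23 of 24 genes positive. Sesn2 stood at 0.77, 0.70 and 0.38, Jun at 0.77, 0.55 and 0.55, Hmox1 at 1.22, 1.56 and 1.56, and Mt2 at 1.01, 1.45 and 1.95. Phlda3 stood at 0.96, 0.37 and 0.12, with a difference of 0.72 ± 0.44 (SE, limma adjusted p = 0.898), and Mdm2 at 0.48, 0.25 and -0.04. The G2 and mitosis medians were -0.12, -0.46 and -0.26. The salivary gland medians were 1.97, 0.84 and 0.19, the adipocyte medians 0.89, 0.23 and -0.11 and the skeletal muscle medians 0.80, -0.32 and 0.07. None of the members named here was called in the test of the difference.

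Of the 344 genes higher at an unadjusted p under 0.05, 65.4% were also positive for numbers starting with 8, 62.2% for numbers starting with 1 and 48.0% for both. Over all 10322 genes with a positive log2 fold change these shares were 48.8%, 51.3% and 32.8%. Of the 258 lower genes 58.1%, 50% and 35.7% were also negative, against 56.0%, 49.4% and 31.8% of all 9616 negative genes.

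**Figure D4:**
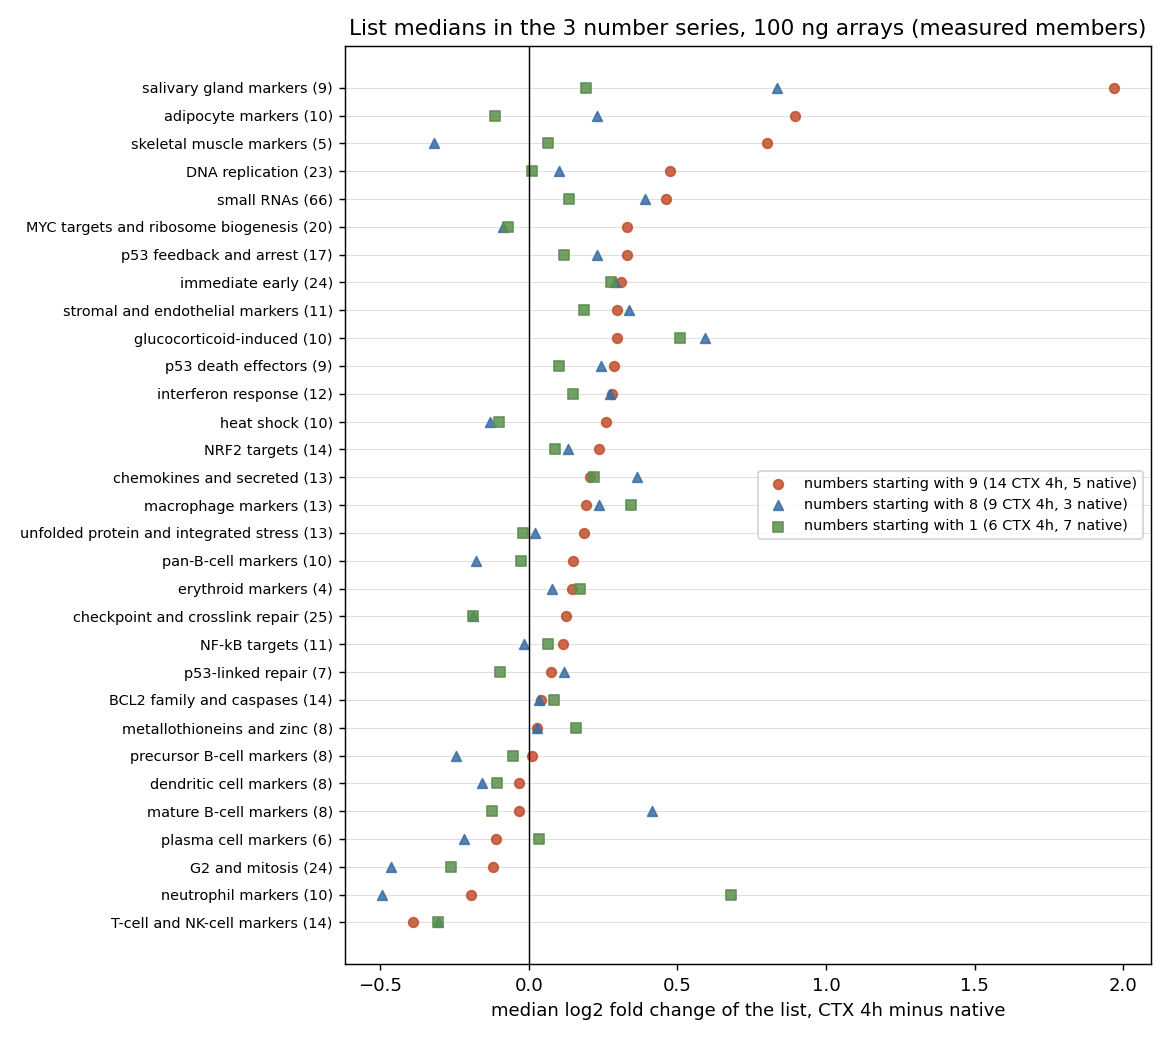
Median log2 fold change, CTX 4h minus native, of 31 lists for lymphoma numbers starting with 9 (circles, 14 against 5 arrays), 8 (triangles, 9 against 3) and 1 (squares, 6 against 7), with the number of measured members in parentheses. The immediate early medians lie between 0.28 and 0.31 in all of them, and the salivary gland medians spread from 0.19 to 1.97.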

How the data were processed

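The deposited values are log2 expression values of Affymetrix gene arrays. Per the submitters' processing notes they were made with Partek 6.5 and RMA, a background correction, normalization and probe summary that compresses differences of dim genes. Which arrays were normalized together is not stated in the labels.

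The array held 35557 probe sets. Those with a unique symbol numbered 21789 (21698 matched a RefSeq gene ID, GRCm38.p6), while 1621 had several symbols and 12147 were unnamed in the annotation used. A gene with several probe sets of its own was read from the brightest on average over the 63 arrays, which gave 19938 genes. Of 395 entries in the gene lists, 25 were not measured this way and were not analysed here.

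The model was limma 3.58.1 (lmFit and eBayes) in R 4.3.3, two-sided, on 14 against 5 arrays, and for the difference a cell-means fit of 44 arrays, from which the values for numbers starting with 8 and 1 also come. It was tested on simulated data. The number of arrays limits the precision. Genes eligible for naming were the 15 smallest p in each direction (none passed the adjusted threshold; predicted genes, olfactory receptors and small RNAs took no place), up to 4 smallest p of each list, a set of pathway genes, and the 8 smallest p of the difference. The comparison, lists and rule were chosen with earlier results of these data known. A list is described by counts and its median, with no set test.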

Additional observations from a re-analysis of the deposited data

Results flagged for a closer look

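In 8 of the 89 genes described, 1 of the 5 native arrays lay far from the other 4 (a gap of over 0.71 of the range). Chance alone flags about 1 in 20 groups of this size. For 6 of the 8 the array was that of lymphoma 9820, always as the lowest: Myc at 11.39, Ccne2 at 6.56, Pcna at 10.57, Pa2g4 at 9.19, Hsp90aa1 at 10.32 and Snord35b at 9.51. For the other 2 it was that of lymphoma 9188, as the highest: Bcl2 at 9.64 and the salivary gland gene Smr3a at 7.03. Zswim3 differed in its log2 fold change between numbers starting with 9 and those starting with 1 and 8 by 0.71, in the limma test of the difference itself.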

How the results depend on the processing

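The count of genes past the adjusted threshold was 0 in each direction under all 34 alternatives (smallest adjusted p 0.256). Those include the 1.5-fold filter, which could not raise the count, and 1 repeated fit. Counts at an unadjusted p under 0.05 were less stable, and the cause was not tested where none is named. Against 344 higher and 258 lower they were 850 and 735 with a spread shared over 44 arrays, 755 and 529 with array weights, 818 and 491 with the adipocyte mean as a term, 582 and 625 after quantile normalization, 116 and 145 with the small RNA mean as a term, and 105 and 25 where a 1.5-fold difference was also asked. The higher count was 583 with the salivary gland mean as a term. The lower count was 403 with a common median, and with fewer genes tested 42 (genes at or above the median level) and 148 (genes over 6 on 5 or more arrays). Leaving out each native array gave 222 to 720 higher and 189 to 518 lower, and each treated array 270 to 431 and 217 to 384. For the difference from numbers starting with 1 and 8, against 1 gene called and 1059 at an unadjusted p under 0.05, each native array left out gave 0 to 1 and 596 to 1881, a common median 0 called, and array weights 2 called. In the same fit of 44 arrays, the contrast against numbers starting with 8 alone gave 0 called and 670. The contrast against numbers starting with 1 alone gave 0 called and 655. Of the genes named, under 6 alternatives, 2 changed sign, both without lymphoma 9820: Ddb2 to -0.033 and Myc to -0.14. No paired analysis was possible because the labels give no number that ties a treated to a native array.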
